A study of Homo sapiens with 6 samples.

Results

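Desmosomes are junctions that tie neighbouring cells together and anchor their keratin filaments. Cadherins of the desmoglein and desmocollin families bind across the gap between cells, plakoglobin and the plakophilins bind the cadherin tails, and desmoplakin links that plaque to the filaments. Keratin filaments are built from pairs of a type I (acidic) and a type II (basic) keratin, and they are hallmarks of epithelia, whereas stellate cells of the liver are best known for the filament proteins vimentin and desmin. The genes described here are 10 of the 58735 genes in the deposited table, taken by symbol: the 4 desmosomal plaque genes DSP, JUP, PKP2 and PKP3 and the 6 keratin genes KRT7, KRT8, KRT17, KRT18, KRT80 and KRT81. They were picked with their response to TGF-β1 already known, so their difference between the groups is given as a description, with no test.

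All libraries came from LX-2, an immortalised line of human hepatic stellate cells, in 2 groups of 3 libraries. In the first group NSUN2, which encodes an enzyme that methylates cytosines in RNA, was targeted by siRNA (a short RNA that silences a gene), followed 48 hours later by TGF-β1 at 5 ng/ml for 24 hours. In the second group, called untreated here, the cells were given the same NSUN2 siRNA and no TGF-β1. TGF-β1 is the main cytokine that drives stellate cells towards scar-forming myofibroblasts. The genotype is labelled WT in all 6, both groups carry the siRNA, and the comparison therefore says nothing of the siRNA itself. NAT10 is given as the siRNA target in one place of the series' description, but the labels of the samples name NSUN2, which is used here. The labels call the replicates biological without naming separate cultures or days, so p-values measure the spread between these libraries.

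Libraries held 25828504 to 29978361 counts with TGF-β1 and 26957170 to 30034762 counts without it. NSUN2 itself was measured in every library, at 103, 97.0 and 102 CPM (counts scaled to a common library size with edgeR's TMM factors) with TGF-β1, against 81.4, 82.9 and 84.4 CPM untreated. Since every library analysed here carries the siRNA, NSUN2 cannot check the labels among them. Many markers of other cell types averaged under 1 CPM, but some did not. Of 7 hepatocyte markers 6 averaged under 1 CPM, with TTR and FGB at 0 in every library, and the list summed to 21.3 to 23.2 CPM with TGF-β1 and 23.6 to 27.4 CPM untreated, nearly all of it SERPINA1. Of 6 bile duct markers 4 averaged under 1 CPM, KRT19 and EPCAM among them and CFTR at 0, and the list summed to 70.4 to 72.0 CPM with TGF-β1 and 95.4 to 97.3 CPM untreated, from SOX9 and SPP1. The 6 mesothelial markers summed to 25.1 to 33.4 CPM with TGF-β1 and 23.9 to 28.1 CPM untreated, mostly WT1, with CALB2 at 4.16, 6.45 and 5.56 CPM with TGF-β1 and 0.896, 0.919 and 0.857 CPM untreated. The 6 keratinocyte markers summed to 36.9 to 41.0 CPM with TGF-β1 and 27.5 to 31.2 CPM untreated, led by KRT10, with KRT1 at 0. The 3 endothelial markers summed to at most 1.70 CPM with TGF-β1 and 2.14 CPM untreated, and the 3 macrophage markers to at most 17.9 CPM with TGF-β1 and 14.4 CPM untreated. Of the 8 stellate markers DCN was at 0 and DES and LUM averaged under 1 CPM. COL1A1 carried most of a sum of 3870 to 4469 CPM with TGF-β1 and 1471 to 1479 CPM untreated. PDGFRB, COL1A1 and COL1A2 were higher with TGF-β1, and HAND2 and GATA4 were lower. The part of these markers in the results was not tested. In bulk RNA, fewer cells that express a gene and less of its RNA per cell cannot be told apart.

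All 10 genes passed the filter on low counts. With TGF-β1, DSP, JUP and the keratin genes KRT7, KRT8, KRT17, KRT18 and KRT81 were higher, and PKP2, PKP3 and KRT80 were lower. In all 10 the ranges of the groups did not overlap, which held for 47.4% of the 17215 tested genes (24.1% above and 23.3% below). The edgeR fit called 7 of them higher (20.2% of tested genes were) and 3 lower (18.7% of tested genes were), 10 in all against 38.9%. Nothing is read from these counts, since the genes were chosen on this contrast. Their median log2 fold change was 0.44, beside -0.01 over all tested genes, and their median absolute log2 fold change was 0.72, beside 0.22. The sizes ranged widely, from a log2 fold change of 0.25 for KRT18 to 2.99 for DSP.

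**Figure D1:**
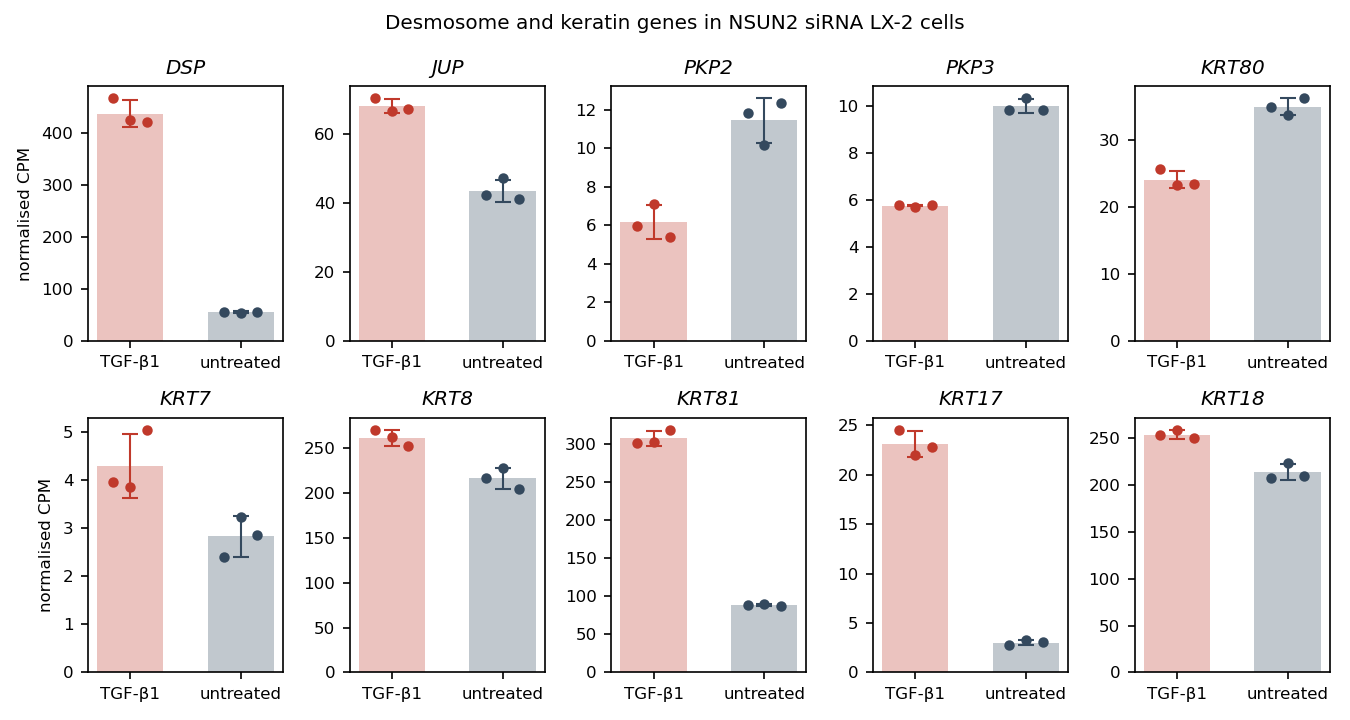
Normalised CPM of each gene in the 3 TGF-β1 and the 3 untreated libraries of NSUN2 siRNA LX-2 cells, 1 panel a gene with its own axis from 0; points are libraries, bars are means and whiskers are SD. The TGF-β1 points lie above the untreated ones in 7 panels and below them in the panels of PKP2, PKP3 and KRT80.

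The RefSeq promoter table held an entry for DSP, JUP and KRT8; PKP2, PKP3, KRT7, KRT17, KRT18, KRT80 and KRT81 had none. The 250 bases before the annotated start are shown for DSP and for the more upstream start of JUP, because these plaque genes were both higher with TGF-β1, followed by the second start of JUP. They come from RefSeq on GRCh38.p14, at chr6:7541421-7541670 on the plus strand for DSP and at chr17:41786712-41786961 and chr17:41785977-41786226 on the minus strand for JUP. Capitals mark matches on either strand to the GC box GGGCGG and to the E-box CAGGTG.
DSP: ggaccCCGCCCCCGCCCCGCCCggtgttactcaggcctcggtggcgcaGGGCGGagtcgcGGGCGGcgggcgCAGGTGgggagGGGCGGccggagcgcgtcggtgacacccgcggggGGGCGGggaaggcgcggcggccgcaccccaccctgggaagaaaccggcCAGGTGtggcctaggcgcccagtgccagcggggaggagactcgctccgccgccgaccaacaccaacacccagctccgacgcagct
JUP upstream start: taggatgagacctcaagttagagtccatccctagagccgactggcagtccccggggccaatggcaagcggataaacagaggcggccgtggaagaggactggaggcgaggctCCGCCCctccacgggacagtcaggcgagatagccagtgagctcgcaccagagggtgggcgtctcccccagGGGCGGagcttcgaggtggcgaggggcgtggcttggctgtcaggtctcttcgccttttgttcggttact
JUP second start: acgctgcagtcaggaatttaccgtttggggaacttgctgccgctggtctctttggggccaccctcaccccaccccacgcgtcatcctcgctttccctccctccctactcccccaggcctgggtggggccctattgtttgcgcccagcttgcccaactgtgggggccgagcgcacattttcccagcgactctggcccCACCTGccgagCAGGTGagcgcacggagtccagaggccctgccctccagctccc

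The DSP window was 78.0% G or C and held 7 GC-box matches, some of which overlap by a base, and 2 E-box matches. The upstream JUP window was 63.6% G or C with 2 GC boxes, and the second was 66.0% with 2 E-boxes. Over all 35116 promoter windows of the same length, 42.6% held the GC box and 17.5% the E-box. None of these 3 windows held the AP-1 motif TGANTCA (in 6.6% of all promoters), the SMAD box CAGAC (38.0%) or the TEAD motif GGAATG (11.9%). The KRT8 window, which is not printed, held 1 SMAD box, at -137 from the start, and none of the other motifs named here. These are letter matches in a short window and no measure of binding.

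The plaque genes differed most in DSP. Desmoplakin, encoded by DSP (ENSG00000096696, chromosome 6, 7541575 to 7586717, plus strand, hg38), is the plakin that fastens keratin filaments to the plaque. DSP stood at 467, 424 and 421 CPM in the TGF-β1 libraries, against 56.2, 53.1 and 55.9 CPM in the untreated libraries. The lowest TGF-β1 library was far above the highest untreated one, and the means were 437.0 ± 25.7 and 55.1 ± 1.68 CPM (SD, n = 3 each). The ratio was 7.94-fold, a log2 fold change of 2.99 ± 0.04 (SE), and 99 of the 17215 tested genes had a larger absolute log2 fold change. Per gene length DSP was at 44.9, 40.8 and 40.6 FPKM with TGF-β1 and 5.42, 5.10 and 5.37 FPKM untreated (the authors' fragments per kilobase of gene and per library size). Among the 13444 tested protein-coding genes that level was at percentile 93.1 with TGF-β1 and 49.9 untreated.

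Plakoglobin, encoded by JUP (ENSG00000173801, chromosome 17, 41754604 to 41786931, minus strand), is an armadillo protein that binds the tails of desmosomal and classical cadherins. JUP was at 70.3, 66.6 and 67.1 CPM with TGF-β1, against 42.1, 47.1 and 41.1 CPM untreated. The groups were apart, with a log2 fold change of 0.65 ± 0.06 (SE), 1.56-fold. DSP and JUP changed rank to each other: per length, DSP was 3.15 ± 0.09 times JUP with TGF-β1 and 0.624 ± 0.062 times JUP untreated (SD, n = 3 each). JUP also made up 26.1 ± 1.02% of the summed FPKM of JUP and its close relative CTNNB1, the beta-catenin gene, with TGF-β1 and 19.96 ± 1.25% untreated.

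Plakophilins are armadillo proteins that cluster desmosomal cadherins and desmoplakin, and both members of this family among the 10 genes were lower. PKP2 (ENSG00000057294, chromosome 12, 32790745 to 32896840, minus strand), the plakophilin of heart and simple epithelia, was at 5.94, 7.12 and 5.41 CPM with TGF-β1 and 11.8, 10.1 and 12.35 CPM untreated. PKP3 (ENSG00000184363, chromosome 11, 392614 to 404908, plus strand), found in most epithelia, was at 5.78, 5.72 and 5.79 CPM with TGF-β1 and 9.85, 10.3 and 9.82 CPM untreated. Their log2 fold changes were -0.89 ± 0.13 and -0.79 ± 0.13 (SE), opposite in direction to DSP and JUP. Their counts were low, at 140 to 204 reads a library with TGF-β1 and 275 to 370 untreated, and PKP2 varied more between libraries of a group (coefficients of variation of 14.2% with TGF-β1 and 10.1% untreated) than counting alone gives (7.82% and 5.41%). The other measured plakophilin, PKP4, which also sits at adherens junctions, averaged 34.4 ± 0.39 CPM with TGF-β1 and 36.5 ± 4.49 CPM untreated and did not pass the test (log2 fold change -0.09 ± 0.07, adjusted p = 0.369), and PKP1 had 0 counts in every library. Over PKP1 to PKP4 the summed level was 5.84 ± 0.14 FPKM with TGF-β1 and 7.86 ± 0.37 FPKM untreated, and PKP4 made up 60.1 ± 0.90% of it with TGF-β1 and 47.2 ± 3.57% untreated.

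**Figure D2:**
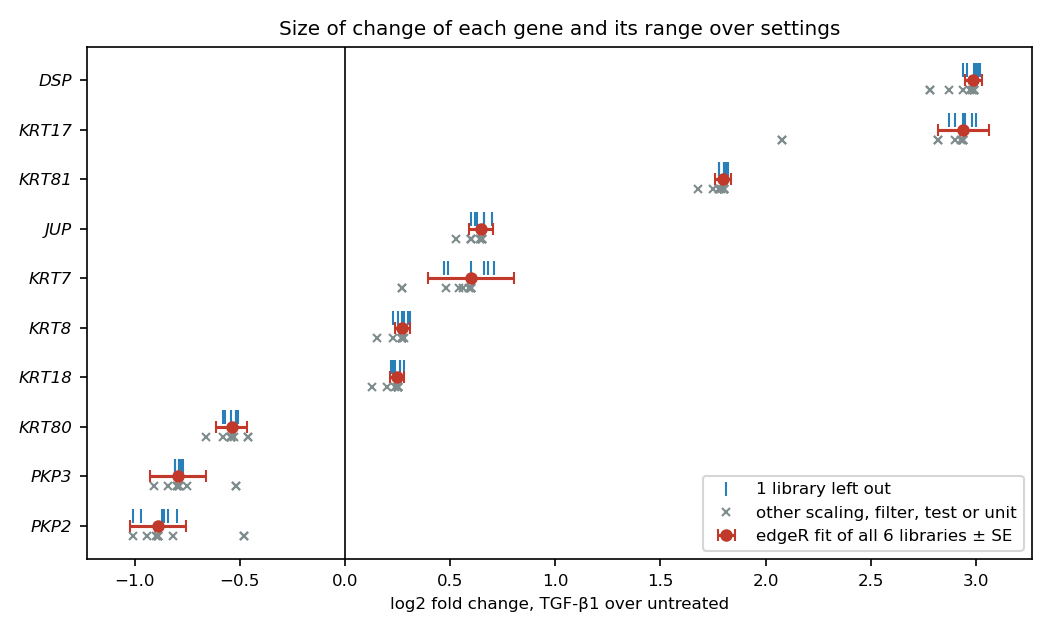
Log2 fold change of TGF-β1 over untreated for each of the 10 genes: red points with SE are from all 6 libraries, blue ticks leave out 1 library each, and grey crosses use another scaling, filter, test or the FPKM table. No tick or cross crosses 0; the crosses nearest to 0 for PKP2, PKP3, KRT17 and KRT7 are from log2(FPKM + 1), where the added 1 shrinks changes of low genes.

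The desmosomal cadherins and the remaining desmosome genes are not among the 10 genes and were tested. This list and the other related lists were also drawn up with earlier results of these data known, so their tests are not independent of the choice. Of 12 such genes 4 passed the filter, and 1 rose and 1 fell, beside 20.2% and 18.7% of all tested genes. DSG2, the desmoglein found in nearly all tissues with desmosomes, was at 147, 148 and 138 CPM with TGF-β1 and 89.5, 87.8 and 89.9 CPM untreated. It rose by 0.70 ± 0.04 on the log2 scale (adjusted p = 4.18e-18, edgeR quasi-likelihood test), higher in 3 of 3 libraries. Per length it kept step with JUP, at 1.70 ± 0.07 times JUP with TGF-β1 and 1.64 ± 0.14 times untreated. PERP, which encodes a membrane protein of desmosomes, fell by 0.34 ± 0.06 (38.9 ± 2.61 CPM with TGF-β1, 49.2 ± 2.38 CPM untreated, adjusted p = 2.51e-05). PPL, the periplakin gene, averaged 0.836 CPM with TGF-β1 and 1.45 CPM untreated and missed the threshold (adjusted p = 0.069).

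The other 8 were nearly silent. Neither DSC1 nor DSC2 had a count in any library, and DSC3 had 0, 0 and 6 counts with TGF-β1 and 2, 0 and 0 untreated. DSG1, DSG3, DSG4 and EVPL had at most 2 counts in any library. DSG2 was thus measured in every library, while no desmocollin passed the filter. E-cadherin (CDH1), the cadherin of epithelial adherens junctions, had 0, 0 and 0 counts with TGF-β1 and 1, 4 and 0 untreated.

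With TGF-β1, KRT81 was the most abundant of the 6 keratin genes in FPKM, and KRT18 was untreated. KRT81 (ENSG00000205426, chromosome 12, 52285913 to 52291534, minus strand) encodes a type II keratin of the hair cortex. It was at 300.4, 302 and 318 CPM with TGF-β1, against 88.8, 89.4 and 86.4 CPM untreated. The groups were far apart at 3.48-fold, a log2 fold change of 1.80 ± 0.04 (SE). In FPKM KRT81 averaged 154.7 ± 5.29 with TGF-β1 and 44.4 ± 0.80 untreated, at percentiles 98.8 and 94.0 of tested protein-coding genes.

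The value of KRT81 depends on how reads were shared with its neighbour KRT86, another type II hair keratin. In GENCODE release 29 their coding sequences were 94.2% identical over 1457 aligned bases, with 605 consecutive identical bases at coding positions 61 to 665 of each, counted from the start codon. Of all 50-base windows in KRT81 transcripts, 43.7% also occurred in transcripts of other genes, 37.6% in KRT86 and 8.9% in the pseudogene KRT87P. The last 60 bases of the identical run (positions 606 to 665) are shown, followed by the next 60 (666 to 725) of each gene, with the bases that differ in capitals.
KRT81 and KRT86: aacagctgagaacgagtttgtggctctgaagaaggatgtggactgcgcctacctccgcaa
KRT81: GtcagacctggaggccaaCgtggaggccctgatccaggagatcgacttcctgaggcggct
KRT86: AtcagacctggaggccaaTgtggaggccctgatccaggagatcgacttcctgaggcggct

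KRT86 was counted at 9.70, 9.25 and 8.42 CPM with TGF-β1 and 2.59, 2.17 and 2.21 CPM untreated, and it rose by 1.97 ± 0.17 (adjusted p = 2.99e-13). KRT87P rose by 1.53 ± 0.35 (adjusted p = 4.03e-04), from counts of 31, 64 and 63 with TGF-β1 and 17, 20 and 24 untreated. KRT81 had 33.8 ± 3.56 times the counts of KRT86 with TGF-β1 and 38.2 ± 3.58 times untreated. Summed over KRT81, KRT86 and KRT87P, the level was 318 ± 9.75 CPM with TGF-β1 and 91.2 ± 1.46 CPM untreated. The sum does not depend on how reads were split among these genes if each read was counted for a single gene. It cannot recover reads that were dropped for fitting several genes. The handling of reads that fit several genes is unknown.

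**Figure D3:**
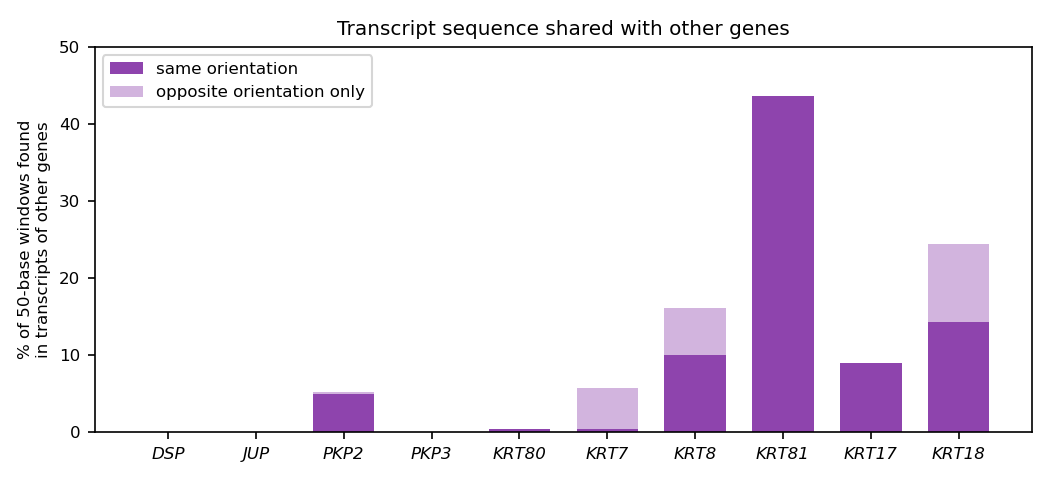
Percent of the distinct 50-base windows in a gene's GENCODE 29 transcripts that also occur in transcripts of other genes, in the same orientation (dark) or only in the opposite one (light), for the 10 genes. KRT81 has the tallest bar at 43.7%, while DSP, JUP and PKP3 share none.

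KRT8 and KRT18 encode the classical pair of simple epithelia, the only keratins of hepatocytes in healthy liver. The type II gene KRT8 (ENSG00000170421, chromosome 12, 52897187 to 52949954, minus strand) was at 271, 263 and 252 CPM with TGF-β1, against 217, 228 and 205 CPM untreated. The type I gene KRT18 (ENSG00000111057, chromosome 12, 52948871 to 52952901, plus strand) was at 253, 259 and 249 CPM with TGF-β1, against 207, 224 and 209.7 CPM untreated. The groups of both genes lay close together without overlap, and the log2 fold changes were nearly alike, 0.27 ± 0.04 for KRT8 and 0.25 ± 0.04 for KRT18 (SE). KRT8 had 1.03 ± 0.03 times the counts of KRT18 with TGF-β1 and 1.01 ± 0.04 times untreated. The pair thus stayed in step, at changes smaller than those of DSP, KRT17 and KRT81. Scaling by library totals alone lowers log2 fold changes by about 0.12 and left 0.15 for KRT8 and 0.13 for KRT18.

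Exons of KRT8 and KRT18 overlap on opposite strands over 525 bases, 7.6% of the exonic bases of KRT8 and 16.3% of those of KRT18, and the strand setting of the counting is unknown. Both genes also have many processed copies, 50 named KRT8 pseudogenes and 67 named KRT18 pseudogenes in the table. The KRT8 copies together held counts equal to 4.87% to 5.19% of those of KRT8 with TGF-β1 and 5.98% to 6.63% untreated. The KRT18 copies held 0.917% to 1.56% of those of KRT18 with TGF-β1 and 1.48% to 1.74% untreated. The copy with the most counts, KRT8P12, held 176, 193 and 165 counts with TGF-β1 and 192, 208 and 184 untreated and did not pass the test (log2 fold change 0.05, adjusted p = 0.830).

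KRT17 (ENSG00000128422, chromosome 17, 41619441 to 41624842, minus strand) encodes a type I keratin that is switched on in wounded and inflamed skin. It was at 24.6, 22.0 and 22.9 CPM with TGF-β1, against 2.75, 3.25 and 3.03 CPM untreated. The groups were apart at 7.68-fold, a log2 fold change of 2.94 ± 0.12 (SE), the second largest of the 10 genes after DSP. Its 8 pseudogenes held 0 to 3 counts with TGF-β1 and 0 to 4 untreated. KRT17 lies 129761 bases from JUP on chromosome 17, and 6 of the 10 genes are on chromosome 12, where the type II keratins and KRT18 form a cluster that does not include PKP2.

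KRT7 (ENSG00000135480, chromosome 12, 52232520 to 52252186, plus strand), a type II keratin of ducts such as bile ducts, was the least abundant in CPM. Its libraries held 98, 111 and 131 counts with TGF-β1 and 75, 99 and 80 untreated. In CPM that was 3.96, 3.87 and 5.06 with TGF-β1 and 2.40, 3.25 and 2.86 untreated, a log2 fold change of 0.60 ± 0.20 (SE). The groups did not overlap but came close, and KRT7 had the largest SE of the 10. It is the gene that was not called without TGF-β1 replicate 3 (log2 fold change 0.47), without untreated replicate 1 (0.49) or with library totals alone (0.48), nor in the fits of FPKM. KRT80 (ENSG00000167767, chromosome 12, 52168996 to 52192000, minus strand), a type II keratin of many epithelia, was the keratin among the 10 that was lower. It was at 25.6, 23.2 and 23.5 CPM with TGF-β1 and 34.9, 33.8 and 36.3 CPM untreated, a log2 fold change of -0.54 ± 0.07 (SE).

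Because keratins assemble as type I with type II, the summed level of each type was set side by side in FPKM. Type I keratins summed to 108 ± 0.75 FPKM with TGF-β1 and 86.98 ± 2.34 FPKM untreated (SD, n = 3 each). Type II keratins summed to 206 ± 4.08 FPKM with TGF-β1 and 86.2 ± 2.52 FPKM untreated. Type II thus made up 65.5 ± 0.31% of keratin FPKM with TGF-β1, against 49.8 ± 0.48% untreated. The share of KRT81 moved in the same direction, at 49.3 ± 0.93% of keratin FPKM with TGF-β1 and 25.6 ± 0.37% untreated. Without KRT81 and KRT86 the type II share was 30.4 ± 0.59% with TGF-β1 and 32.0 ± 0.52% untreated. All type I and II keratins together reached 148 ± 3.93% of the FPKM of VIM, the vimentin gene, with TGF-β1 and 86.7 ± 3.50% untreated, and the 6 keratins named above made up 89.9 ± 0.35% and 85.9 ± 0.46% of that keratin sum. FPKM here divides by the length of all annotated exons of a gene, 6881 bases for KRT8 and 1929 for KRT81, and shares of FPKM depend on those lengths.

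**Figure D4:**
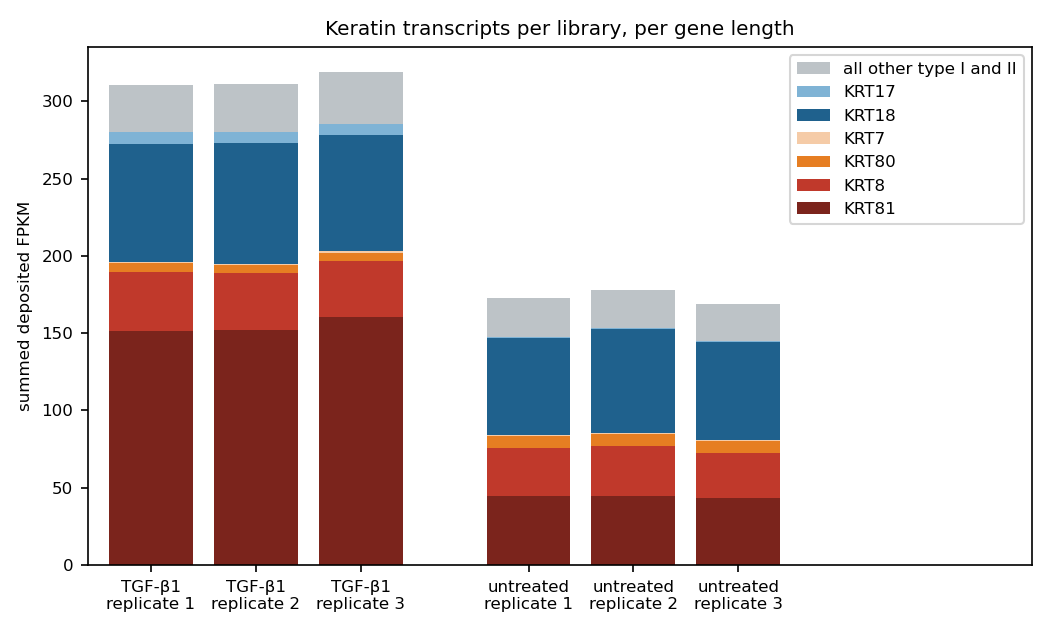
Summed deposited FPKM of all type I and type II keratin genes in each library, stacked by gene, with type II genes (KRT81, KRT8, KRT80, KRT7) in red to orange and type I genes (KRT18, KRT17) in blue. The stacks reach 311 to 319 FPKM with TGF-β1 and 169 to 178 FPKM untreated, and the KRT81 segment differs most between the groups.

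The 49 other keratin genes were tested apart. Only 9 passed the filter; 40 did not, with at most 10 counts in any library, and 18 of those had no count at all. Among the 9, 6 rose and 3 fell, beside 20.2% and 18.7% of all tested genes. Their median log2 fold change was 0.49 beside -0.01 over all tested genes. KRT14 and KRT16 had enough counts for the filter only with TGF-β1, and KRT15 and KRT33B only untreated. The directions and p-values of these genes, and the counts and median that include them, are therefore no independent support. KRT14 and KRT16, type I keratins that with KRT17 belong to basal and wounded epidermis, rose by 3.89 ± 0.28 (adjusted p = 1.74e-15) and 4.18 ± 0.45 (adjusted p = 7.36e-09). KRT14 held 117, 152 and 168 counts with TGF-β1 and 15, 9 and 9 untreated, and KRT16 held 65, 82 and 115 with TGF-β1 and 7, 0 and 9 untreated. In coding sequence KRT17 was 85.2% identical to KRT14 and 80.8% to KRT16, but only 0.4% and 0.5% of its 50-base windows occurred in them. KRT14 and KRT16 were 88.6% identical to each other, with 158 consecutive identical bases. Of their windows 16.8% and 16.5% occurred in other genes, so their separate values depend on how shared reads were counted.

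The type II partners of these epidermal keratins were hardly measured. KRT5 had 4, 2 and 0 counts with TGF-β1 and 0, 2 and 0 untreated, and KRT6A had 0, 4 and 1 with TGF-β1 and 0 in every untreated library. KRT3, a type II keratin of the cornea, rose by 2.62 ± 0.33 (adjusted p = 1.24e-08), from 54, 80 and 103 counts with TGF-β1 and 13, 12 and 18 untreated. KRT10 rose by 0.20 ± 0.07 (adjusted p = 0.0292), a call lost without TGF-β1 replicate 3 or without untreated replicate 2 or 3 (adjusted p = 0.0942 to 0.149) and with library totals alone (log2 fold change 0.08). KRT79 rose by 0.49 ± 0.18 (adjusted p = 0.0326), a call lost without TGF-β1 replicate 2 (log2 fold change 0.29, adjusted p = 0.289) or without untreated replicate 3 (0.30, adjusted p = 0.247). The KRT79 call was also lost with the DESeq2 Wald test (adjusted p = 0.062), upper-quartile factors, library totals alone and every fit of FPKM. The keratins that fell were the hair keratins KRT34 (-0.41 ± 0.11, adjusted p = 0.00324) and KRT33B (-1.55 ± 0.45, adjusted p = 0.00567) and the basal keratin KRT15 (-2.56 ± 0.74, adjusted p = 0.00451). KRT33B had 16, 25 and 2 counts with TGF-β1 and 36, 56 and 49 untreated. KRT15 had 2, 2 and 2 counts with TGF-β1 and 11, 19 and 12 untreated. Without untreated replicate 2, KRT15 did not pass the filter. KRT19, the usual type I partner of KRT7 in bile ducts, had 0, 0 and 2 counts with TGF-β1 and 0, 4 and 3 untreated. KRT15, KRT10, EPPK1, NEFL, EHF and other genes outside the rule for named genes were chosen after their values were seen.

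**Figure D5:**
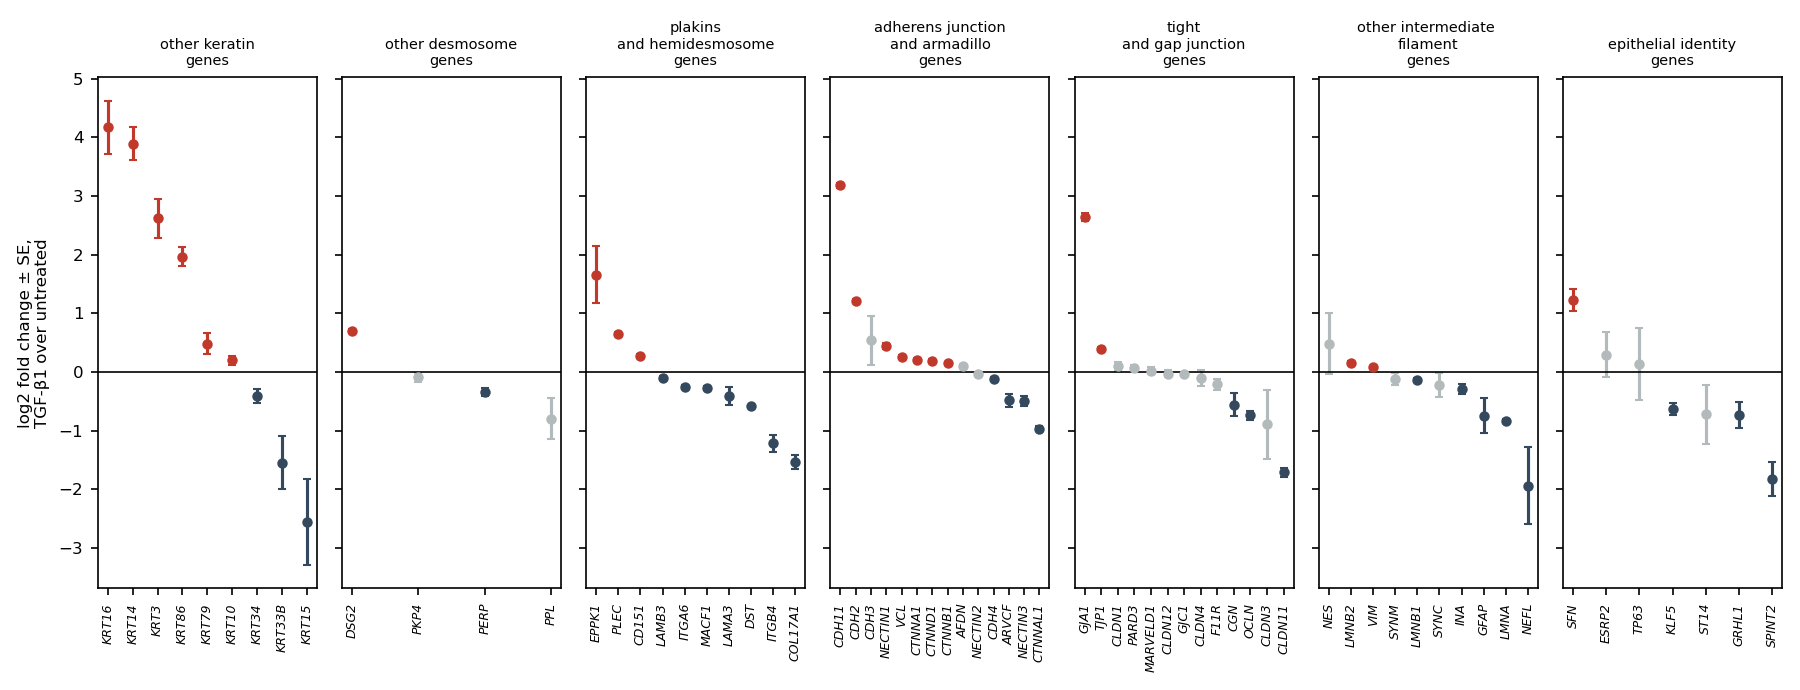
Log2 fold change with SE (TGF-β1 over untreated) of tested genes in 7 related lists that exclude the 10 genes, red where called higher, dark blue where called lower and grey where not called; genes with 3 or fewer counts over a group and a few others are left out. KRT16 and KRT14 lead the keratins, and CDH11 leads the adherens junction list. Of the epithelial identity genes, KLF5, GRHL1, ST14 and SPINT2 lie below 0 and SFN, ESRP2 and TP63 above it.

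Other proteins that hold filaments or junctions moved in both directions. Among 11 plakin and hemidesmosome genes, all tested, 4 rose and 7 fell, beside 20.2% and 18.7% of all tested genes. The plakin gene PLEC, whose product cross-links intermediate filaments, rose by 0.65 ± 0.03 (1563 ± 67.7 CPM with TGF-β1, 995.5 ± 19.5 CPM untreated, adjusted p = 4.59e-22), CD151 by 0.27 ± 0.03 and EPPK1, the epiplakin gene, by 1.66 ± 0.49, a call lost without TGF-β1 replicate 1 (1.27, adjusted p = 0.0719). EPPK1 held 49, 26 and 29 counts with TGF-β1 and 19, 17 and 2 untreated. It had enough counts for the filter only with TGF-β1, so its direction is no independent support for the 4 that rose. The hemidesmosome genes COL17A1 and ITGB4 fell by 1.54 ± 0.12 and 1.21 ± 0.14. The plakins DST and MACF1 fell by 0.58 ± 0.03 and 0.27 ± 0.03. DSP and PLEC were thus higher while DST and MACF1, plakins as well, were lower. LAMA3 also fell, by 0.41 ± 0.16 (adjusted p = 0.0364), a call lost without any of TGF-β1 replicates 2 and 3 or the 3 untreated replicates (adjusted p = 0.0662 to 0.138).

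Of 14 tested adherens junction and armadillo genes 7 rose and 4 fell, beside 20.2% and 18.7% of all tested genes. The mesenchymal cadherins CDH11 and CDH2 rose by 3.19 ± 0.04 and 1.21 ± 0.03, and the catenin and linker genes VCL, CTNNA1, CTNND1 and CTNNB1 by 0.26, 0.20, 0.19 and 0.15. NECTIN1 rose by 0.45 ± 0.05. With library totals alone CTNNB1 (log2 fold change 0.03, adjusted p = 0.491) and CTNND1 (0.07, adjusted p = 0.0644) lost their calls. CTNNB1 was at 465 ± 12.7 CPM with TGF-β1 and 420.1 ± 5.03 CPM untreated (adjusted p = 1.21e-04), so JUP, its relative at desmosomes, had the larger log2 fold change. The members that fell were CTNNAL1 (-0.96 ± 0.04), NECTIN3 (-0.50 ± 0.09), ARVCF (-0.48 ± 0.11) and CDH4 (-0.12 ± 0.03). Of 14 tested tight and gap junction genes 2 rose and 4 fell, beside the same 20.2% and 18.7% of all tested genes. The connexin gene GJA1 rose by 2.64 ± 0.07 and the scaffold TJP1 by 0.39 ± 0.03, while CLDN11 (-1.71 ± 0.08), OCLN (-0.74 ± 0.08) and CGN (-0.56 ± 0.20) fell. The CGN call was lost without TGF-β1 replicate 2 or 3 and without untreated replicate 2 or 3 (adjusted p = 0.0672 to 0.137).

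Of 10 tested intermediate filament genes other than keratins, 2 rose and 5 fell, beside 20.2% and 18.7% of all tested genes, and both counts changed with the processing. VIM was at 1129, 1130 and 1104 CPM with TGF-β1 and 1078, 1045 and 1063 CPM untreated. Its log2 fold change of 0.08 ± 0.03 passed (adjusted p = 0.0213), but it was -0.04 with library totals alone, and the call was lost without TGF-β1 replicate 2 or untreated replicate 2 or 3 (adjusted p = 0.0603 to 0.115). LMNB2 rose by 0.15 ± 0.03, a call lost with library totals alone (0.03), and the lamin genes LMNA (-0.84 ± 0.03) and LMNB1 (-0.14 ± 0.04) fell. INA (-0.29 ± 0.09), GFAP (-0.75 ± 0.30) and NEFL (-1.94 ± 0.66) also fell, of which GFAP lost its call without TGF-β1 replicate 2 or 3 and without any untreated replicate (adjusted p = 0.0548 to 0.156), and INA without TGF-β1 replicate 2 (adjusted p = 0.107) or untreated replicate 3 (adjusted p = 0.0538). NEFL lost its call without TGF-β1 replicate 2 or untreated replicate 1 or 3 (adjusted p = 0.0529 to 0.133). NEFL had enough counts for the filter only untreated, so its direction is no independent support for the 5 that fell. DES, the desmin gene, had at most 2 counts in a library with TGF-β1 and 6 untreated.

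Of 18 epithelial identity genes 8 passed the filter, of which 1 rose and 4 fell, beside 20.2% and 18.7% of all tested genes. The 8 had a median log2 fold change of -0.68 beside -0.01 over all tested genes. SFN, the stratifin gene of stratified epithelia, rose by 1.23 ± 0.19 (adjusted p = 8.39e-07). The transcription factor genes KLF5 (-0.63 ± 0.10) and GRHL1 (-0.74 ± 0.22) and the protease inhibitor SPINT2 (-1.82 ± 0.29) fell. EHF, an ETS factor of epithelia, was also called lower, with 0, 1 and 0 counts with TGF-β1 and 35, 19 and 21 untreated. EHF had enough counts for the filter only untreated, so its direction is no independent support for the 4 that fell or for the median. ESRP1, GRHL2 and OVOL1 had no count in any library. ESRP2, ST14 and TP63 passed the filter and were not called (adjusted p = 0.280 to 0.894).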

How the data were processed

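RNA was sequenced from 6 libraries, 3 a group by the sample labels. Tools named in the submitters' processing notes are fastp and HISAT2 2.2.1, with hg38 as the build; neither the counting tool nor its strand setting is known. The authors deposited whole-number counts per gene, not normalized, and FPKM. Within each library FPKM equals counts over gene length and 1 library size, 0.984 to 0.987 times the total with TGF-β1 and 1.070 to 1.075 times untreated, so it is no independent measurement. Both tables also hold per-sample columns that were not used, 6 in each.

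Counts were tested with edgeR 4.0.16 (R 4.3.3): filterByExpr (a minimum count of 10 and a minimum of 15 in total; 17215 of 58735 genes kept), TMM factors, robust quasi-likelihood fit, group as the only term, 4 residual degrees of freedom, two-sided, Benjamini-Hochberg adjusted p under 0.05. The common biological coefficient of variation was 5.62%. An SE is the absolute log2 fold change over the square root of F. TMM factors also scale the CPM values. The test was checked on simulated counts. Alternatives used DESeq2 1.42.0 and limma 3.58.1. Within groups, replicates were further apart than sampling noise allows (chi-square per degree of freedom 3.63 to 4.88). Same-numbered libraries had deviations correlated at -0.009 to 0.011 over all tested genes, which shows no sign of pairing. Noise of low genes weighs on these correlations, so they cannot exclude a shared culture or day.

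The 10 genes and all lists were chosen with earlier results of these data known. Eligible to be named beside the 10 genes were, from each list, up to 5 called genes a direction with a mean of at least 1 CPM by size of change. Where none was called, these were the 2 with the highest CPM. Genes whose exons overlap the 10, their pseudogenes with at least 10 counts, and NSUN2 were also eligible. Of the pseudogenes only KRT8P12 and KRT87P are named, and the antisense gene that overlaps KRT7 is not. Further genes were named where a count was 5 or fewer, where a marker or partner was near 0, or as members of a small family. Exons and transcripts came from GENCODE release 29, which gives the 10 genes the same positions as the deposited table, and shared sequence was counted in exact windows of 50 bases on both strands. Type I keratins were KRT9 to KRT28 and KRT31 to KRT42, and type II keratins KRT1 to KRT8 and KRT71 to KRT86. No library without the siRNA was analysed here, and a few list genes are counted but not reported by name here.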

Additional observations from a re-analysis of the deposited data

How the results depend on the processing

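All 10 genes kept their direction under the 16 alternatives run, 7 higher and 3 lower, and 9 or 10 of them were called. Their median log2 fold change, 0.44, was 0.39 with upper-quartile factors, 0.32 with library totals alone and 0.27 with log2(FPKM + 1), with or without the filter on mean FPKM, and 0.38 to 0.51 with 1 library left out. Over all tested genes 3471 were called higher and 3226 lower. Library totals alone gave 2019 and 5354, with all tested genes at a median of -0.13 on the log2 scale, upper-quartile factors gave 2821 and 3897, and log2(FPKM + 1) with no filter gave 1881 lower. With the replicate number as a block the counts were 3431 higher and 3182 lower, and the block changed no call of a named gene.

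In the related lists, library totals alone gave 3 lower desmosome genes in place of 1, 0 higher intermediate filament genes in place of 2, 7 lower tight and gap junction genes in place of 4, 5 higher and 5 lower adherens junction genes in place of 7 and 4, and 4 higher keratin genes in place of 6; VIM turned to -0.04. With 1 library left out, 4 to 6 other keratin genes were higher. At least 1 CPM in 3 libraries gave 2 lower desmosome genes. Higher intermediate filament genes came to 1 with upper-quartile factors, with no filter on low counts and with log2(FPKM + 1) without a filter, and to 1 to 2 with 1 library left out; lower ones came to 3 on either FPKM scale with the filter, to 1 without it, and to 2 to 5 with 1 library left out. On the FPKM scales 2 tight and gap junction genes were lower, 1 epithelial identity gene was lower with the filter, and 1 other keratin gene was lower with log2(FPKM + 0.1) or with no filter. The FPKM filter removes low genes from the test; other causes were not tested. The type II share in CPM in place of FPKM was 65.2% with TGF-β1 and 57.3% untreated. Leaving out KRT81 and KRT86, which gave 30.4% and 32.0%, was chosen after seeing the data. With 3 libraries a group and 75 to 131 counts, KRT7 is the least precise of the 10 genes, and intervals here cover these libraries only.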
